A study of Mus musculus with 27 samples.

Results

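The 40 mouse genes described here act in DNA replication and mitosis and were taken from a list of cell cycle genes. All 40 were among the 25192 gene symbols in the deposited table of counts, and all 40 passed the filter on low counts in every comparison. By role they comprised the proliferation markers Mki67 and Top2a, the G1/S cyclins Ccne1 and Ccne2, 9 genes of origin licensing and the replicative helicase, 4 genes of the sliding clamp and nucleotide supply, and 23 genes of mitosis. Bulk RNA sequencing had been run on cultured cells labelled mouse aortic endothelial cells (MAECs), bone marrow derived macrophages (BMDMs) and mouse embryonic fibroblasts (MEFs). Each was given imidazole propionate (ImP, a microbial metabolite of histidine) at 10 µg/mL for 1 h or 2 h, or was unstimulated (0 h), with 3 libraries in each of the 9 groups. The study asked which pathways ImP switches on in each cell type. No genotype, strain, age or vehicle group matched in time was given, and neither the animal nor the culture behind a library, so p-values measure the spread between these libraries, which may be technical. Per the labels, a directional kit was used for BMDM and MEF libraries and a low-input kit for MAEC libraries, from RNA of different extraction kits and from wells of different size, so kit and cell type cannot be told apart.

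A cell that prepares to divide first loads the MCM2-7 helicase onto replication origins with Cdc6 and Cdt1, and cyclin E with Cdk2 then starts S phase. In S phase the clamp Pcna holds DNA polymerases on the template while ribonucleotide reductase and thymidylate synthase supply the precursors. Cyclin A and cyclin B with Cdk1 drive entry into mitosis, the spindle checkpoint holds cells until every kinetochore is attached, and the anaphase-promoting complex with Cdc20 ends mitosis. Most of these genes are transcribed only in cycling cells, replication genes chiefly through E2F factors and mitotic genes chiefly through the DREAM, B-Myb and FoxM1 complexes, so in a population their RNA follows the share of cycling cells. In bulk samples fewer cycling cells and less RNA per cell cannot be told apart.

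Library totals ran from 18955352 to 61029374 counts in MAECs, 28754034 to 35583478 in BMDMs and 30554596 to 36489015 in MEFs. The smallest count of any of the 40 genes in any library was 171. All 12 macrophage markers were at 10 CPM (counts scaled to library size) or more in BMDMs and 7 of 11 fibroblast markers were in MEFs. In MAECs 1 of 14 endothelial markers reached 10 CPM (Eng, at 102 CPM), with 8 below 1 CPM, and Cldn5 and Robo4 were at 0, whereas 10 of 11 fibroblast and 5 of 8 smooth muscle markers reached it, so these libraries are called by their label only. The endothelial markers summed to 95.8 to 143 CPM per library in MAECs, 238 to 283 CPM in BMDMs and 88.4 to 120 CPM in MEFs, and the smooth muscle markers to 815 to 1455, 5.13 to 9.10 and 205 to 261 CPM in the same order. Their part in the results was not tested. In BMDMs the third library labelled 1 h and the third library labelled 2 h went against their labels in 2 early response genes. Nfkbia, which encodes an inhibitor of NF-kappaB, had 261, 251 and 47.3 CPM in the 1 h BMDM libraries, 52.1, 42.6 and 270.0 CPM in those of 2 h, and 46.4, 42.2 and 42.5 CPM in those of 0 h. Tnf, the cytokine gene, was at 21.1 CPM in the third 1 h library and 309.9 CPM in the third 2 h library, against 16.3 to 17.7 CPM at 0 h. The third 1 h library thus lay near the other 2 h libraries and those of 0 h, and the third 2 h library near or above the other 1 h libraries. The library codes of the pair also run in the opposite order from those of the other BMDM libraries. Whether their labels were exchanged was not tested. The labels were kept, so the BMDM values at 1 h, at 2 h and between them may each hold a library of the other time, and calls are given with and without the pair.

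Promoter sequences of 5 of the genes are shown because they hold, or lack, the words through which known regulators reach replication and mitosis genes. Each is the most abundant gene per kilobase of its role group over the 27 libraries, and the 5 groups with the highest such genes were taken. Each run gives the 250 bases before the RefSeq transcript start on GRCm38.p6, 5' to 3' on the gene's own strand, and capitals mark CCAAT (the NF-Y box), the cell cycle homology region (CHR, searched as TTTGAA and TTCGAA) and E2F sites (TTTCCCGC, TTTCGCGC, TTTGCCGC and TTTGGCGC), each on both strands. Pcna lies at chr2:132253181-132253430, minus strand, Mcm6 at chr1:128359706-128359955, minus strand, Top2a at chr11:99024190-99024439, minus strand, Birc5 at chr11:117848987-117849236, plus strand and Ube2c at chr2:164769679-164769928, plus strand.
Pcna: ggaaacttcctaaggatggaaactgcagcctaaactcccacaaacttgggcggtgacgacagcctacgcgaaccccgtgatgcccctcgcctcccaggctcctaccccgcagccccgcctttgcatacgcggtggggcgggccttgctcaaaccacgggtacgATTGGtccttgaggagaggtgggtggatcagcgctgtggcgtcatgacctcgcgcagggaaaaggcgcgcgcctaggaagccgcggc
Mcm6: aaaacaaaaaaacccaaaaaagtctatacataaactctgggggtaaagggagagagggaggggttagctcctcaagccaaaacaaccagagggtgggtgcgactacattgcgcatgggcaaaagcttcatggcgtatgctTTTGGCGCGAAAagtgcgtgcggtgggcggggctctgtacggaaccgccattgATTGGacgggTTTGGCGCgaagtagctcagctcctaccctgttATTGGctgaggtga
Top2a: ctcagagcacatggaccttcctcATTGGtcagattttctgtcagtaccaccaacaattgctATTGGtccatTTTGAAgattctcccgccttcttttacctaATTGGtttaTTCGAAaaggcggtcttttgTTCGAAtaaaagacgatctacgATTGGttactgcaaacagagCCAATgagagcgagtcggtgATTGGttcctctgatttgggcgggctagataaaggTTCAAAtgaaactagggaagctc
Birc5: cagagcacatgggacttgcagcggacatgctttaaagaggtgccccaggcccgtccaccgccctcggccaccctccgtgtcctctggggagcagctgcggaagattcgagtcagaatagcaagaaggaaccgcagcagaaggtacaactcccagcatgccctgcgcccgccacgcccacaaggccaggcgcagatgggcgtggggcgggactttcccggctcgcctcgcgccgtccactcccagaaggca
Ube2c: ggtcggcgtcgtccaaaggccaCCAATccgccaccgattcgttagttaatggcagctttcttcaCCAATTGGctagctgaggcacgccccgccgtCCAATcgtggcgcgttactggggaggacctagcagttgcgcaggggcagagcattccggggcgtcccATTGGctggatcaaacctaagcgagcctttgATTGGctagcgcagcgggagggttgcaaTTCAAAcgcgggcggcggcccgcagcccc
The Mcm6 run, from a helicase subunit, holds 3 E2F matches, of which the first and second overlap on opposite strands, and 2 CCAAT boxes, and no CHR. The Top2a and Ube2c runs hold 6 CCAAT boxes each, a pair of them overlapping in Ube2c, with 4 and 1 CHR matches and no E2F match, Pcna holds 1 CCAAT box, and Birc5 holds none of these words.

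RefSeq promoter windows (250 bases before to 50 bases after the start) were found for 33 of the 40 genes. CCAAT occurred in 27 of the 33 windows (81.8%), against 37.9% of all 27025 windows. A CHR word occurred in 19 (57.6%), against 19.4% of all windows, and an E2F octamer in 7 (21.2%), against 2.32%. Over the 10258 windows of expressed genes the shares were 39.2% for CCAAT, 13.9% for a CHR word and 4.11% for an E2F octamer. The words were split by role: of the 19 mitosis genes with a window 15 held a CHR word and 1 (Cdk1) an E2F octamer, whereas of the 7 licensing and helicase genes with a window 2 held a CHR word and 6 an E2F octamer (Cdc6, Cdt1, Mcm3, Mcm5, Mcm6 and Mcm7). Over all 12 replication and G1/S genes with a window, 2 held a CHR word and 6 an E2F octamer. Ccne1, Pcna, Rrm1, Rrm2 and Tyms held neither. A match to these words is a description and not evidence of binding.

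Unstimulated MEFs had the highest mean level of 33 of the 40 genes, MAECs of 6 and BMDMs of 1 (Pcna). BMDMs had the lowest level of 29 genes and MAECs of 11, and no gene was lowest in MEFs. The commonest order was MEF above MAEC above BMDM (23 genes), followed by MEF above BMDM above MAEC (10 genes), MAEC above MEF above BMDM (6 genes) and BMDM above MEF above MAEC (1 gene). On the scale of CPM per kilobase of transcript, the median gene was at 21.96 in MAECs, 9.39 in BMDMs and 55.3 in MEFs. The lowest and highest genes on that scale were Cenpf (4.07) and Rrm2 (201) in MAECs, Cenpf (1.94) and Pcna (395) in BMDMs, and Ccne1 (10.6) and Top2a (204) in MEFs. The leading gene thus differed as well: the clamp gene led in BMDMs and the mitotic topoisomerase in MEFs.

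**Figure D1:**
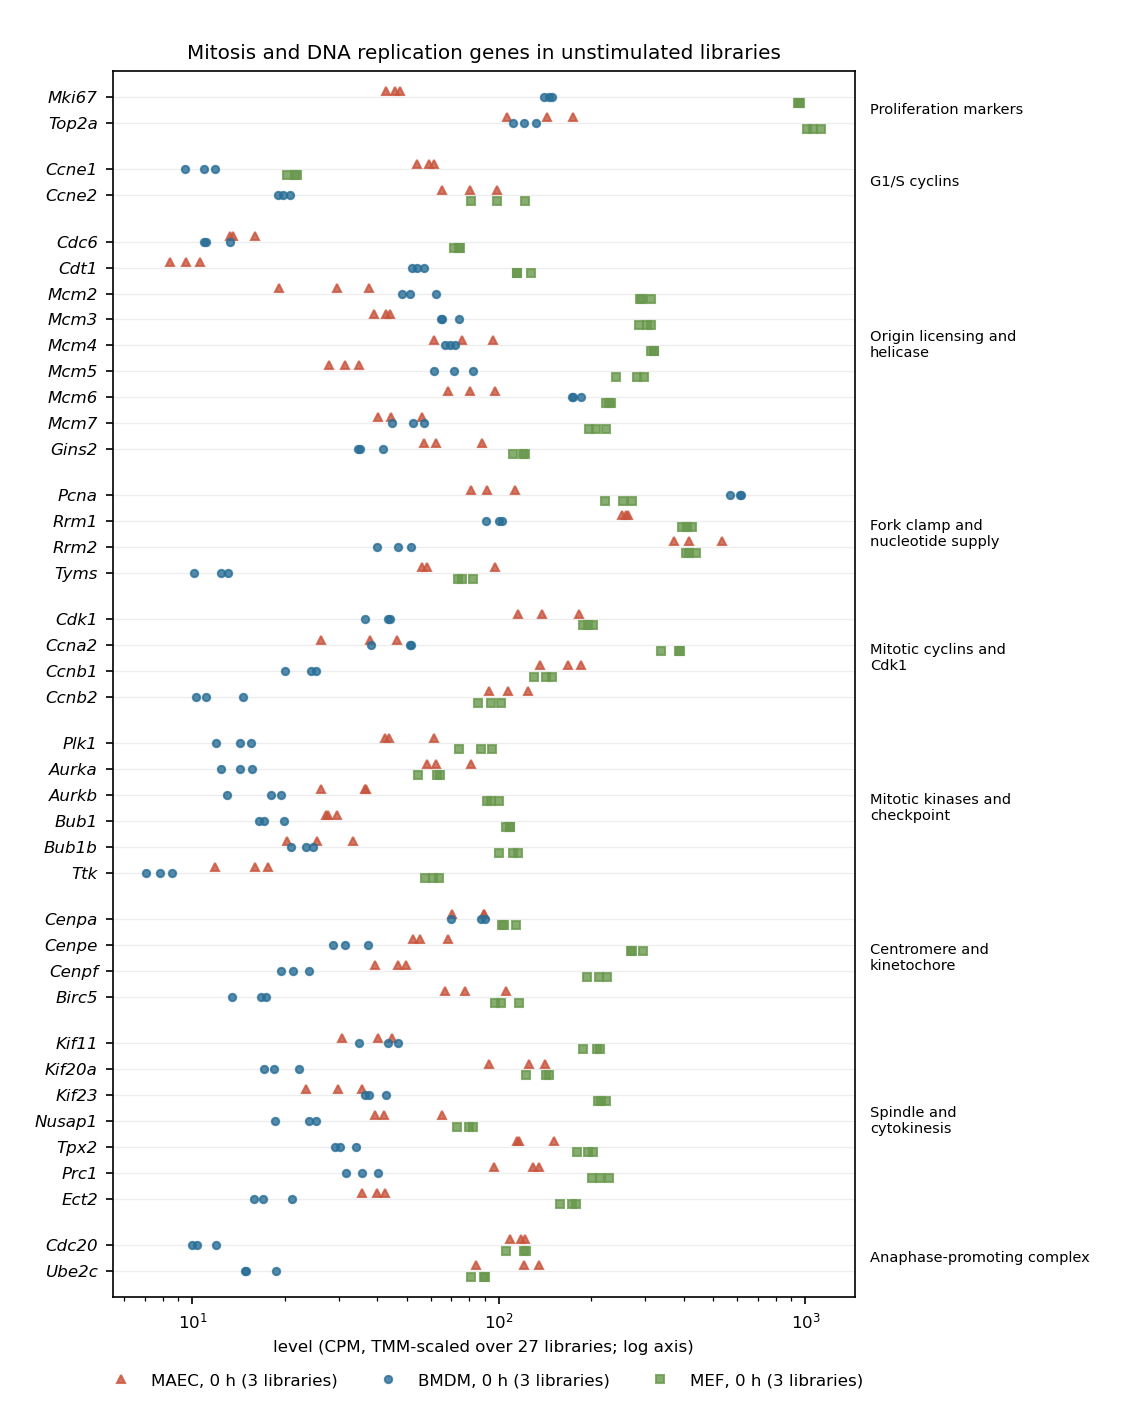
Level of each of the 40 genes in the 3 unstimulated libraries of MAECs (triangles), BMDMs (circles) and MEFs (squares), in CPM on a log axis, with genes grouped by role. The mean is highest in MEFs for 33 genes, in BMDMs for Pcna alone, and in MAECs for Ccne1 and 5 mitotic or nucleotide genes. All MAEC points lie below all MEF points for 29 genes and above them for Ccne1 alone, and for the rest the points of MAECs and MEFs overlap.

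In BMDMs against MEFs at 0 h, 38 of the 40 genes were lower and 1 was higher (edgeR's quasi-likelihood test, adjusted p under 0.05), against 35.5% of the 17038 genes tested that were lower and 32.7% that were higher. Their median log2 difference was -2.48, where that of all genes tested was -0.065. In MAECs against MEFs 28 were lower and 1 was higher, against 34.9% and 37.2% of all genes, with a median log2 difference of -1.44 (all genes 0.054). In MAECs against BMDMs 24 were higher and 9 lower, against 40.6% and 36.1% of all genes, with a median of 0.96 (all genes 0.126). Since the 3 differences share libraries, they are not independent of each other.

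The proliferation markers were lower in both BMDMs and MAECs than in MEFs, and parted from each other in MAECs. Mki67, whose protein coats mitotic chromosomes, was at 45.9, 47.5 and 42.97 CPM in MAECs, 148, 141 and 146 CPM in BMDMs and 961, 945 and 953 CPM in MEFs. Its log2 difference was -2.72 ± 0.14 (SE) in BMDMs against MEFs, -4.39 ± 0.15 in MAECs against MEFs and -1.67 ± 0.14 in MAECs against BMDMs, with no overlap between the libraries of any pair of cell types. Top2a, the topoisomerase that untangles replicated chromosomes, was at 106, 143 and 175 CPM in MAECs, 132, 121 and 111 CPM in BMDMs and 1059, 1010.4 and 1126 CPM in MEFs. MAECs and BMDMs overlapped in Top2a (0.22 ± 0.13, adjusted p = 0.114 by edgeR), while both were below MEFs (-2.91 ± 0.13 in MAECs and -3.13 ± 0.14 in BMDMs). Both transcripts are long, at 10061 and 5221 bases.

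The cyclin E genes, which activate Cdk2 at the start of S phase, differed from each other in order. Ccne1 was at 59.01, 61.3 and 53.9 CPM in MAECs, 11.9, 9.45 and 10.9 CPM in BMDMs and 21.9, 21.6 and 20.3 CPM in MEFs, so all MAEC libraries were above all MEF libraries, and these above all BMDM libraries. Its log2 difference was 1.45 ± 0.13 in MAECs against MEFs (adjusted p = 2.91e-10 by edgeR) and -0.99 ± 0.14 in BMDMs against MEFs (adjusted p = 4.26e-07). Ccne2 was at 65.1, 80.7 and 98.3 CPM in MAECs, 18.98, 20.8 and 19.8 CPM in BMDMs and 98.8, 121 and 80.99 CPM in MEFs, where MAECs and MEFs overlapped (-0.30 ± 0.20, adjusted p = 0.175) and BMDMs were below both. Per kilobase the ratio of Ccne1 to Ccne2 was 0.825 to 1.36 in MAECs, 0.681 to 0.9397 in BMDMs and 0.268 to 0.377 in MEFs at 0 h. Ccne1 was thus the only one of the 40 genes called higher in MAECs than in MEFs.

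All 9 genes of origin licensing and the helicase were lower in MAECs than in MEFs, and all 9 were lower in BMDMs than in MEFs. Cdc6 and Cdt1 load the helicase, and Cdt1 is destroyed once S phase begins. Cdc6 was at 13.3, 15.9 and 13.5 CPM in MAECs, 13.2, 11.1 and 10.9 CPM in BMDMs and 71.2, 73.9 and 74.8 CPM in MEFs. Cdt1 was at 10.6, 8.43 and 9.52 CPM in MAECs, 56.9, 53.96 and 51.98 CPM in BMDMs and 115, 115 and 127 CPM in MEFs, so that the BMDM libraries lay between the others, at a log2 difference of -3.63 ± 0.17 in MAECs and -1.13 ± 0.16 in BMDMs against MEFs. For Cdc6 the values were -2.37 ± 0.14 and -2.64 ± 0.14, and MAECs did not pass the test against BMDMs (0.28 ± 0.14, adjusted p = 0.0648 by edgeR).

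Of the helicase subunits, Mcm2 was at 29.6, 37.6 and 19.2 CPM in MAECs, 62.4, 48.2 and 51.3 CPM in BMDMs and 293, 289 and 313 CPM in MEFs. Mcm5 was at 27.9, 31.5 and 34.95 CPM in MAECs, 82.5, 71.3 and 61.2 CPM in BMDMs and 296, 241 and 283 CPM in MEFs. Mcm3 was at 42.9, 39.1 and 44.2 CPM in MAECs, 73.99, 64.6 and 64.96 CPM in BMDMs and 303, 285 and 312 CPM in MEFs. For all of these the order was MEF, then BMDM, then MAEC, without overlap between the libraries of the cell types. The log2 differences in MAECs against MEFs ran from -1.48 (Mcm6) to -3.37 (Mcm2) over the 6 MCM genes. In BMDMs against MEFs they ran from -0.36 (Mcm6) to -2.47 (Mcm2). Mcm6 differed from the other subunits in BMDMs. Its levels were 80.6, 96.8 and 68.2 CPM in MAECs, 175, 186 and 173 CPM in BMDMs and 229, 223 and 232 CPM in MEFs, 1.28-fold below MEFs, while the other 5 were 3.81-fold (Mcm5) to 5.53-fold (Mcm2) below. Gins2, a further helicase component, was at a log2 difference of -0.77 ± 0.14 in MAECs and of -1.66 ± 0.14 in BMDMs against MEFs.

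The clamp and nucleotide genes split in both directions. Pcna was at 91.2, 80.9 and 112 CPM in MAECs, 611, 618 and 569 CPM in BMDMs and 254, 272 and 222 CPM in MEFs, so BMDMs were above all MEF libraries and MAECs below them. Its log2 difference was 1.27 ± 0.11 in BMDMs against MEFs (adjusted p = 2.15e-10 by edgeR), the only one of the 40 genes called higher there, and -2.66 ± 0.12 in MAECs against BMDMs. Rrm2, the small subunit of ribonucleotide reductase, was at 372, 418 and 535 CPM in MAECs, 51.6, 46.95 and 40.1 CPM in BMDMs and 439, 417 and 406 CPM in MEFs. MAECs and MEFs overlapped for Rrm2 (0.07 ± 0.12, adjusted p = 0.625), and BMDMs were lower than either (-3.19 ± 0.13 against MEFs). With each library's trend on transcript length removed, the MAEC minus MEF value of Rrm2 was -0.27 and was called (adjusted p = 0.0494 by edgeR). The large subunit Rrm1 was at 253, 264 and 259 CPM in MAECs, 100.1, 102 and 90.4 CPM in BMDMs and 411, 395 and 427 CPM in MEFs, with no overlap between cell types. Tyms, which makes thymidylate, had a log2 difference of -0.14 ± 0.15 in MAECs against MEFs (adjusted p = 0.416) and of -2.71 ± 0.16 in BMDMs against MEFs (adjusted p = 4.34e-14).

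Among the mitotic cyclins and their kinase, cyclin A and Cdk1 were called between MAECs and MEFs and the cyclin B genes were not. Ccna2, which acts in S phase and G2, was lower in MAECs than in MEFs (-3.33 ± 0.16). Ccnb1 was at 136, 168 and 185 CPM in MAECs, 25.3, 24.4 and 20.1 CPM in BMDMs and 149, 130.1 and 142 CPM in MEFs. Cdk1 was at 115, 138 and 183 CPM in MAECs, 43.4, 43.97 and 36.5 CPM in BMDMs and 202, 188 and 195 CPM in MEFs. MAECs and MEFs overlapped in Ccnb1 (0.21 ± 0.13, adjusted p = 0.145 by edgeR) and in Ccnb2 (0.20 ± 0.16, adjusted p = 0.247), and Cdk1 was called lower in MAECs (-0.43 ± 0.15, adjusted p = 0.0115). With the length trend removed Ccnb2 turned to -0.71 and was called lower (adjusted p = 7.27e-05), and Cdk1 turned to 0.44 and was called higher (adjusted p = 0.0352), while Ccnb1 (0.10, adjusted p = 0.511) did not pass. In BMDMs all of these were lower than in MEFs, from -2.24 (Cdk1) to -2.98 (Ccna2). Cyclin B genes were accordingly higher in MAECs than in BMDMs (2.81 ± 0.14 for Ccnb1 and 3.17 ± 0.17 for Ccnb2), whereas Ccna2 was lower (-0.35 ± 0.15, adjusted p = 0.0384).

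The 6 mitotic kinase and checkpoint genes were all lower in BMDMs than in MEFs, from -2.10 (Aurka, the spindle pole kinase) to -2.96 (Ttk, which starts the spindle checkpoint). In MAECs 5 were lower than in MEFs, with the checkpoint genes Bub1, Bub1b and Ttk between -1.93 and -2.05, Aurkb at -1.52 and Plk1 at -0.80. Aurka did not pass (0.15 ± 0.16, adjusted p = 0.392 by edgeR), but was called lower with the length trend removed (-0.43, adjusted p = 0.0163).

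Of the centromere and kinetochore genes, Cenpe (a kinetochore motor) and Cenpf were lower in both MAECs (-2.25 and -2.22) and BMDMs (-3.10 and -3.29) than in MEFs. Cenpa, the histone that marks centromeres, was the one gene of the 40 that passed in none of the 3 comparisons. Over 38 alternative settings, which include comparisons at 1 h and 2 h of ImP, it passed in 12 for MAECs against MEFs and 18 for BMDMs against MEFs. Its log2 difference was -0.36 ± 0.17 in MAECs against MEFs (adjusted p = 0.0537 by edgeR), -0.37 ± 0.17 in BMDMs against MEFs (adjusted p = 0.0501) and 0.01 ± 0.17 in MAECs against BMDMs (adjusted p = 0.968). Birc5, of the chromosomal passenger complex, was lower in BMDMs (-2.72) and did not pass in MAECs (-0.33 ± 0.16, adjusted p = 0.0648) against MEFs.

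All 7 spindle and cytokinesis genes were lower in BMDMs than in MEFs, from -1.79 (Nusap1) to -3.24 (Ect2, the exchange factor that positions the cleavage furrow). In MAECs 6 of the 7 were lower. They ranged from -0.60 (Tpx2, the activator of Aurora A) to -2.86 (Kif23, a motor of the central spindle), with Prc1, which bundles central spindle microtubules, at -0.84. Kif20a did not pass (-0.19 ± 0.15, adjusted p = 0.247 by edgeR), but was called higher with the length trend removed (0.43, adjusted p = 0.022). Kif11, the motor that separates the spindle poles, was at -2.40.

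Cdc20 and Ube2c, the activator and the ubiquitin-conjugating enzyme of the anaphase-promoting complex, were lower in BMDMs than in MEFs and did not pass between MAECs and MEFs. With the length trend removed both were called lower in MAECs, Cdc20 at -0.68 (adjusted p = 6.09e-05 by edgeR) and Ube2c at -0.96 (adjusted p = 1.09e-05), where Ube2c had the opposite sign. Cdc20 was at 109, 118 and 122 CPM in MAECs, 11.9, 9.99 and 10.4 CPM in BMDMs and 123, 106 and 121 CPM in MEFs, with MAECs and MEFs overlapping (-0.0044 ± 0.14, adjusted p = 0.987 by edgeR). Its log2 difference of -3.43 ± 0.15 in BMDMs against MEFs was the largest in size of the 40. Ube2c was at 83.9, 121 and 135 CPM in MAECs, 18.8, 14.8 and 15.01 CPM in BMDMs and 89.2, 81.02 and 89.8 CPM in MEFs, and its value was 0.39 ± 0.18 in MAECs against MEFs (adjusted p = 0.0636) and -2.42 ± 0.20 in BMDMs against MEFs. Without a stated strand of counting, reads of 10 of the 40 genes cannot be told apart from those of a gene on the opposite strand that overlaps their exons, among them Ccne2, Mcm7, Ccna2, Plk1, Cdc20 and Ube2c, and Pcna, Tyms, Ccnb1 and Ccnb2 have annotated pseudogene copies.

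**Figure D2:**
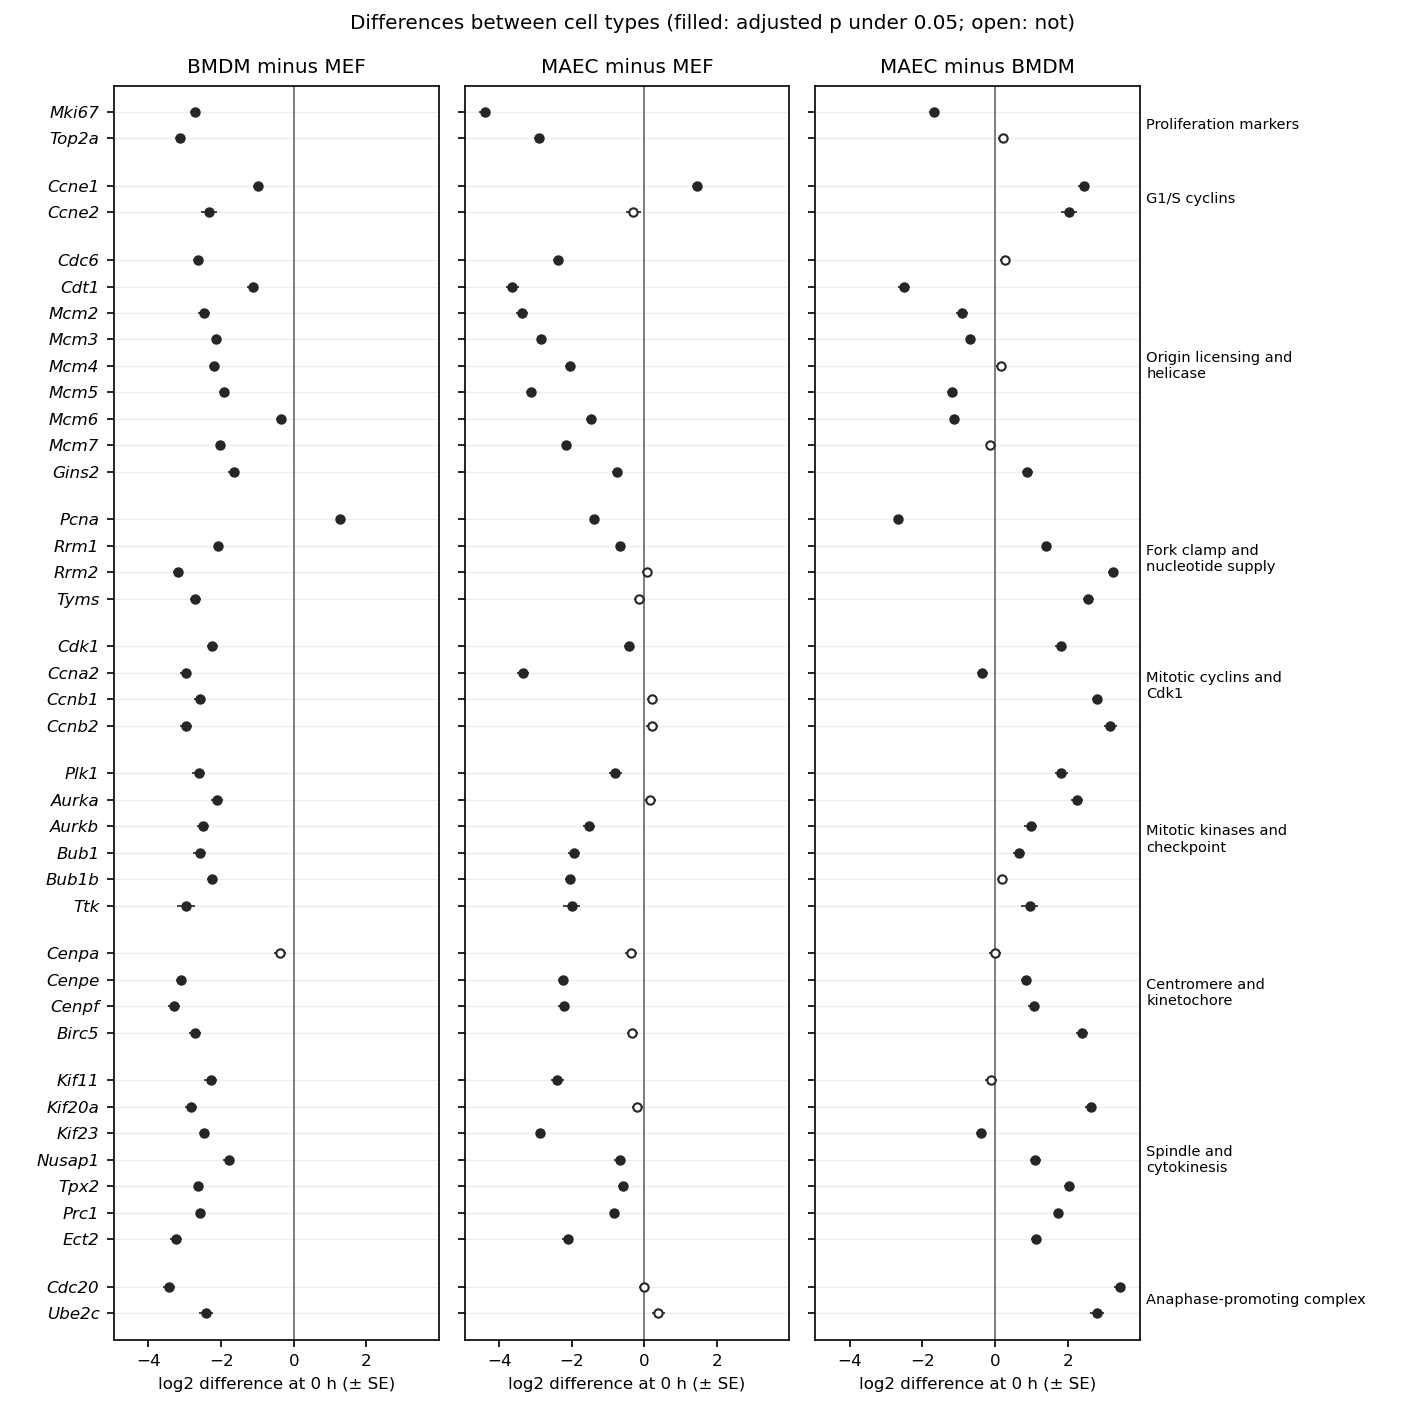
Log2 difference of each of the 40 genes between unstimulated cell types (edgeR estimate, bars ± SE), as BMDM minus MEF, MAEC minus MEF and MAEC minus BMDM. Filled circles passed at an adjusted p under 0.05 and open circles did not. BMDM minus MEF values lie between -3.43 and -0.36 except Pcna at 1.27, while MAEC minus MEF values spread from -4.39 to 1.45.

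The balance between helicase and mitosis genes differed between cell types. The 6 MCM genes summed to 97.4 ± 9.69 CPM per kilobase in MAECs, 157 ± 9.39 in BMDMs and 506 ± 21.4 in MEFs (SD, n = 3 each). The 23 mitosis genes summed to 760 ± 115, 237 ± 26.8 and 1208 ± 69.5 CPM per kilobase in the same order. The ratio of the MCM to the mitosis sum was 0.104 to 0.147 in the unstimulated MAEC libraries, 0.639 to 0.710 in BMDM libraries and 0.411 to 0.427 in MEF libraries, without overlap. Over all 9 libraries of a cell type it was 0.104 to 0.182 in MAECs, 0.594 to 0.785 in BMDMs and 0.411 to 0.523 in MEFs. The lowest ratio was that of MAECs and the highest that of BMDMs at each time. Mcm6, which is part of the MCM sum, had a log2 difference of -0.36 in BMDMs against MEFs. The other MCM genes ran from -1.93 (Mcm5) to -2.47 (Mcm2), and the ratio without Mcm6 is not given here. The sums are divided by transcript length, but the trend on length that differs between libraries, described next, was not removed from them. Its part in the MAEC ratio was not tested.

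Gene length went with the difference between MAECs and MEFs, a comparison in which the library kit also differed. Across the 40 genes Spearman's rho between transcript length and the MAEC minus MEF log2 difference was -0.489, and it was -0.388 across 12989 genes of at least 1 CPM; these are descriptions across genes that share libraries. Genes shorter than the median of 3016 bases had a median log2 difference of -0.52 and longer ones -2.08. With the trend on length removed from each library, rho over the 40 genes was 0.074 and their median difference -1.30, with 31 genes lower and 3 higher (Ccne1, Cdk1 and Kif20a). The shares of all genes called in that setting are not given here. Mki67, at 10061 bases among the longest, was then at -2.81, and Cenpf, at 11130 bases, at -0.60. Rrm1 (0.049), Tpx2 (0.26), Cdk1 (0.44), Kif20a (0.43), Tyms (0.25), Rrm2 (-0.27), Aurka (-0.43), Ccnb2 (-0.71) and Ube2c (-0.96) had the opposite sign from the uncorrected values, whereas Cdt1 (-3.99), Ccna2 (-3.10), Mcm2 (-2.90), Mcm5 (-2.63) and Mcm3 (-2.55) were lower in either case. Gins2 (-0.067, adjusted p = 0.74 by edgeR), Rrm1 and Tpx2 no longer passed. The genes newly called lower were Cenpa (-1.33), Birc5 (-1.70), Ube2c, Ccnb2, Cdc20 (-0.68), Aurka and Rrm2. In MAECs against BMDMs, where the kit differed too, rho was -0.26 over the 40 genes and -0.265 over all. The median difference of the 40 genes there was 0.96 as fitted and 1.27 with the trend removed. Over 38 alternative settings the MAEC minus BMDM value ran from -2.23 to -0.425 for Mki67 and from -0.072 to 1.225 for Top2a. Those settings include the same cell types compared at 1 h and at 2 h of ImP. In BMDMs against MEFs, of 1 kit, rho was -0.214 over the 40 genes and -0.071 over all. Kit and cell type cannot be told apart in the length trend of MAECs.

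**Figure D3:**
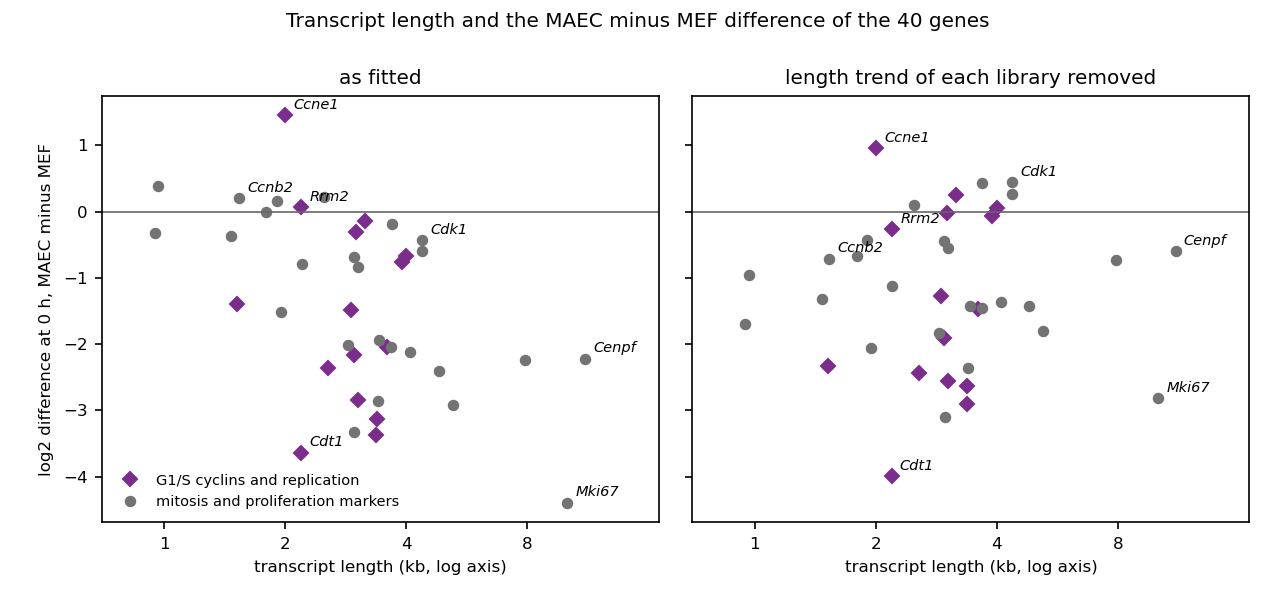
MAEC minus MEF log2 difference at 0 h of the 40 genes against transcript length in kilobases (log axis), as fitted (left) and with each library's trend on length removed (right). Diamonds are G1/S and replication genes and circles mitosis genes and proliferation markers. Long genes such as Mki67 and Cenpf lie low on the left and higher on the right, while Cdt1 stays near the bottom and Ccne1 at the top in both.

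Companion genes of the cell cycle differed in the same comparisons. Of 29 other replication genes 25 were lower in BMDMs than in MEFs, led by Orc6 (-2.88) and Pole (-3.13), and in MAECs 23 were lower and 4 higher. Of 30 other mitosis genes 29 were lower in BMDMs, led by the condensin subunits Smc2 (-2.57) and Smc4 (-2.20), and in MAECs 26 were lower and 2 higher. Foxm1, which drives G2/M transcription, was at 9.16 ± 4.305 CPM in MAECs, 22.8 ± 2.55 CPM in BMDMs and 222 ± 9.33 CPM in MEFs (SD, n = 3 each), and Mybl2, which encodes B-Myb, was also lower in MAECs (-5.79) than in MEFs. E2f1 was lower in MAECs (-0.97 ± 0.15) and did not pass in BMDMs (-0.21 ± 0.15, adjusted p = 0.212 by edgeR), and Myc was lower in BMDMs (-1.43 ± 0.15) and did not pass in MAECs (-0.083 ± 0.15, adjusted p = 0.622).

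The CDK inhibitors and D cyclins, which act before the restriction point, were not all lower. Of 7 CDK inhibitors 3 were higher and 3 lower in MAECs than in MEFs, and 3 and 3 in BMDMs. Of 6 D cyclins and G1 kinases 4 were higher and 2 lower in MAECs, and 1 and 5 in BMDMs. Of 22 pocket protein, E2F, DREAM and MYC genes 4 were higher and 15 lower in MAECs, and 3 and 12 in BMDMs. Of all genes tested 37.2% were higher and 34.9% lower in MAECs, and 32.7% and 35.5% in BMDMs, so the counts of CDK inhibitors lay near the background. Cdkn1a, the p21 inhibitor, was at 773 ± 142 CPM in MAECs, 281 ± 12.4 CPM in BMDMs and 64.3 ± 7.11 CPM in MEFs (SD, n = 3 each), higher in MAECs (3.59) and in BMDMs (2.13) than in MEFs. Cdkn2a was lower in both than in MEFs (-3.20 in MAECs and -7.45 in BMDMs). Ccnd1, a D cyclin, was at 1789 ± 179.7 CPM in MAECs, 307 ± 24.8 CPM in BMDMs and 404 ± 37.1 CPM in MEFs. Ccnd2 was higher in MAECs (3.41) and lower in BMDMs (-4.24) than in MEFs.

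No gene of the 40 passed the test after ImP in any cell type with all libraries and the filter on low counts. By edgeR 0 of 40 were called at 1 h or 2 h against 0 h or at 2 h against 1 h, where 0.0226% of all genes tested were called in BMDMs at 1 h, 0.0302% at 2 h, and 0% in each of the other 7 comparisons. At an unadjusted p under 0.05 there were 2 of 40 in MAECs at 1 h, 4 at 2 h and 0 between 2 h and 1 h. The same counts were 1, 1 and 1 of 40 in BMDMs and 5, 0 and 5 in MEFs. Of all genes tested the shares at that p were 4.96%, 9.21% and 1.98% in MAECs, 5.23%, 6.15% and 1.65% in BMDMs and 5.87%, 2.43% and 12.15% in MEFs. The counts were near or below these shares except in MEFs at 1 h, with 5 of 40. DESeq2 called 1 in BMDMs at 2 h (Cdt1) and 2 in MEFs between 2 h and 1 h (Cenpf and Cenpe), and 0 elsewhere, and limma-voom called 0 throughout. Without the third 1 h and 2 h BMDM libraries edgeR called 0 at 1 h, 1 at 2 h (Cdt1) and 0 between them in BMDMs. The shares of all genes given above are of edgeR with all libraries. No such share is given here for DESeq2, limma-voom or the fit without the pair.

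The values were small against the range of all genes. Median log2 fold changes of the 40 genes were -0.076 at 1 h and -0.15 at 2 h in MAECs, 0.040 and 0.052 in BMDMs and -0.003 and -0.015 in MEFs, against 0.005, 0.015, 0.003, 0.004, 0.005 and -0.005 over all genes tested. In BMDMs and MEFs all 40 log2 fold changes were under 0.5 in size at both times, and in MAECs 40 were at 1 h and 37 at 2 h. In MAECs 29 of 40 were negative at 2 h, and the median lay between -0.27 and -0.094 over 18 alternative settings. The share of all genes that were negative is not given here. Summed over the 40 genes, the MAEC libraries were at 1143.5, 1327.1 and 1499.7 CPM per kilobase at 0 h. At 2 h they were at 1073.6, 1313.0 and 1043.0, so the libraries of the times overlapped. The median SE of a gene was 0.185 in MAECs, 0.115 in BMDMs and 0.077 in MEFs at 2 h, so changes of that order were not detectable.

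**Figure D4:**
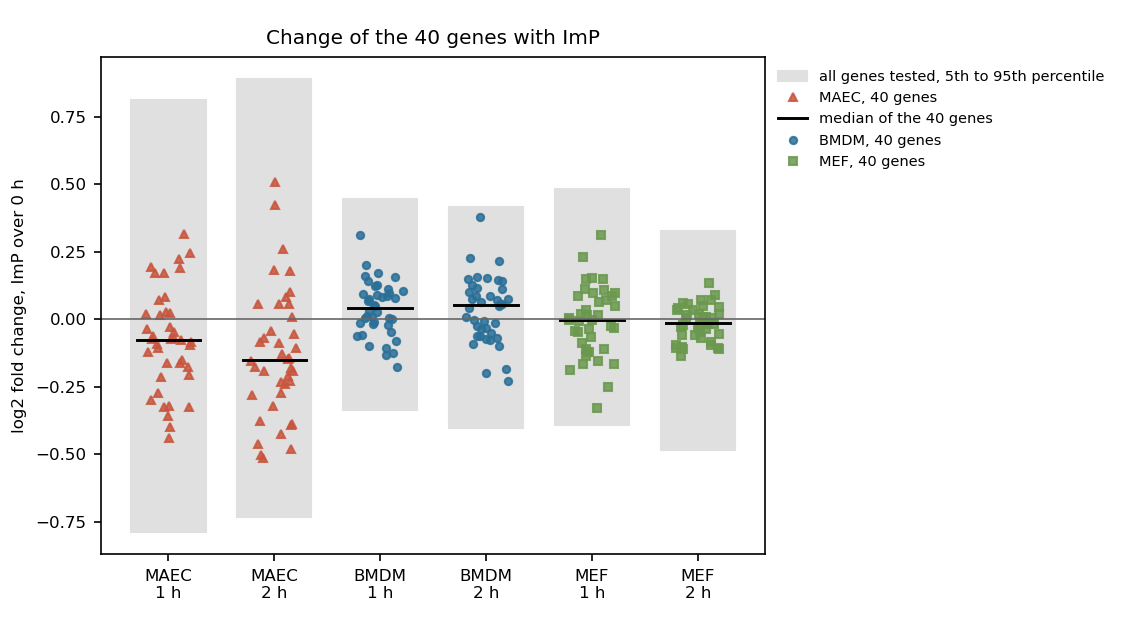
Log2 fold change of each of the 40 genes at 1 h and 2 h of ImP over 0 h in MAECs, BMDMs and MEFs, with the median as a black line and the range from the 5th to the 95th percentile of all genes tested as a grey box. Points lie inside the grey box, the largest in size being 0.51, and the medians lie between -0.15 and 0.05.

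In BMDMs Cdt1 had the smallest p of the 40 genes at both times. Its levels were 56.9, 53.96 and 51.98 CPM at 0 h, then 61.9, 69.5 and 70.6 at 1 h and 71.9, 76.7 and 62.6 at 2 h, so every ImP library was above every unstimulated one. The log2 fold change was 0.31 ± 0.084 at 1 h (adjusted p = 0.922 by edgeR) and 0.38 ± 0.084 at 2 h (adjusted p = 0.432). Without the third 1 h and 2 h libraries the value at 2 h was 0.46 ± 0.079, with an adjusted p of 0.0481 by edgeR, and 0.27 ± 0.079 at 1 h, with an adjusted p of 0.259. Over 20 alternative settings the 2 h value lay between 0.31 and 0.48, with adjusted p from 0.0207 to 1.

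The other BMDM genes with the smallest p had overlapping libraries in most comparisons. Cenpa was at 89.7, 87.1 and 69.97 CPM at 0 h, then 112, 98.997 and 73.4 at 1 h and 93.6, 94.6 and 97.7 at 2 h, above the unstimulated libraries at 2 h only, at 0.20 ± 0.14 and 0.21 ± 0.14 on the log2 scale. Kif23, of the central spindle, was at 42.8, 37.7 and 36.4 CPM at 0 h, then 37.97, 42.04 and 37.2 at 1 h and 42.1, 44.6 and 42.1 at 2 h, a log2 fold change of 0.14 ± 0.081 at 2 h over 0 h. Its 2 h libraries were above all 1 h ones and crossed those of 0 h. Mcm3 was at 73.99, 64.6 and 64.96 CPM at 0 h, then 69.6, 78.1 and 80.1 at 1 h and 68.1, 78.4 and 67.8 at 2 h, at 0.16 ± 0.083 at 1 h. None of these 3 passed, with adjusted p from 0.82 to 0.964 by edgeR.

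On the negative side, Cdk1 was at 43.4, 43.97 and 36.5 CPM at 0 h, then 36.8, 43.2 and 35.1 at 1 h and 35.6, 36.5 and 36.8 at 2 h in BMDMs, with log2 fold changes of -0.11 ± 0.092 and -0.18 ± 0.092. Bub1, of the spindle checkpoint, was at 19.8, 17.1 and 16.5 CPM at 0 h, then 20.3, 21.005 and 18.2 at 1 h and 18.5, 13.5 and 14.4 at 2 h, at -0.20 ± 0.13 at 2 h over 0 h and -0.35 ± 0.13 at 2 h over 1 h (adjusted p = 1 by edgeR). Birc5 was at 17.4, 16.7 and 13.5 CPM at 0 h, then 14.6, 17.1 and 12.8 at 1 h and 14.8, 13.6 and 12.2 at 2 h, at -0.23 ± 0.13 at 2 h. In all of these at least 1 ImP library lay within the range of the unstimulated ones. Aurka was at 14.3, 15.6 and 12.4 CPM at 0 h, then 11.6, 13.2 and 12.6 at 1 h and 14.3, 15.7 and 9.62 at 2 h, a log2 fold change of -0.18 ± 0.16 at 1 h. Ccne1 was at 11.9, 9.45 and 10.9 CPM at 0 h, then 8.64, 9.14 and 11.7 at 1 h and 9.65, 10.7 and 10.3 at 2 h, a log2 fold change of -0.13 ± 0.14 at 1 h. Both overlapped the unstimulated libraries. Between 2 h and 1 h Prc1 (36.95, 37.3 and 32.97 CPM at 1 h, then 40.7, 41.4 and 35.4 at 2 h) differed by 0.14 ± 0.10 on the log2 scale. Aurkb (15.2, 18.5 and 12.4 CPM at 1 h, then 18.5, 19.6 and 13.9 at 2 h) differed by 0.17 ± 0.19. The third 2 h library was below both others of its group for 32 of the 40 genes and the third 1 h library for 21. The same counts over all genes are not given here, and the cause was not tested.

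The remaining BMDM values at 1 h and 2 h are set against those at 0 h given above. Mki67 was at 155, 152 and 163 CPM at 1 h, then 162, 182 and 116 at 2 h, with the 1 h libraries above and the 2 h libraries on both sides of the unstimulated ones. Top2a was at 121, 139 and 121 CPM at 1 h, then 135, 144 and 113 at 2 h. Ccnb1 was at 23.3, 23.9 and 20.3 CPM at 1 h, then 23.7, 22.9 and 19.7 at 2 h. Top2a and Ccnb1 overlapped their unstimulated libraries. Among the replication genes, Mcm2 was at 49.4, 57.8 and 63.6 CPM at 1 h, then 63.2, 62.04 and 53.7 at 2 h. Mcm5 was at 67.7, 76.3 and 72.3 CPM at 1 h, then 67.1, 78.01 and 60.4 at 2 h. Cdc6 was at 9.84, 11.9 and 11.5 CPM at 1 h, then 11.4, 12.8 and 10.8 at 2 h. These 3 ranges crossed those of the unstimulated libraries. Pcna, the most abundant of the 40 in BMDMs, was at 523, 561 and 639 CPM at 1 h, then 572, 556 and 548 at 2 h. Rrm2 was at 45.7, 54.7 and 47.1 CPM at 1 h, then 52.04, 55.1 and 45.8 at 2 h. Ccne2 was at 17.2, 21.9 and 21.1 CPM at 1 h, then 18.6, 19.99 and 18.5 at 2 h. These 3 crossed the unstimulated range as well.

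In MEFs the smallest p at 1 h was that of Cenpf, which has one of the longest transcripts. Cenpf was at 212, 194 and 225 CPM at 0 h, then 158, 167 and 183 at 1 h and 209.8, 226 and 235 at 2 h. Cenpe was at 271, 269.9 and 294 CPM at 0 h, then 227, 239 and 242 at 1 h and 266, 294 and 312 at 2 h. For both, all 1 h libraries were below all 0 h and all 2 h libraries. The log2 fold change of Cenpf was -0.33 ± 0.077 at 1 h over 0 h (adjusted p = 0.846 by edgeR) and 0.39 ± 0.077 at 2 h over 1 h (adjusted p = 0.142). For Cenpe it was -0.25 ± 0.072 and 0.29 ± 0.072 (adjusted p = 0.846 and 0.18). DESeq2 called both at 2 h over 1 h, with adjusted p of 0.00182 for Cenpf and 0.0145 for Cenpe.

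These values moved with gene length. Spearman's rho of the log2 fold change with transcript length was -0.461 over the 40 genes and -0.396 over 12175 genes in MEFs at 1 h over 0 h, and 0.643 and 0.507 at 2 h over 1 h. At 2 h over 0 h in MEFs it was 0.495 and 0.313. The same values in BMDMs were 0.242 and 0.212 at 1 h, and 0.26 and 0.274 at 2 h over 0 h. In MAECs they were 0.147 and 0.282 at 1 h, and 0.221 and 0.337 at 2 h over 0 h. With the trend on length removed in MEFs, Cenpf was at -0.18 ± 0.093 at 1 h over 0 h and 0.17 ± 0.093 at 2 h over 1 h, and Cenpe at -0.15 ± 0.071 and 0.12 ± 0.071. Leaving out the first 1 h MEF library as well gave -0.072 and 0.060 for Cenpf, and -0.081 and 0.058 for Cenpe. Mki67, also long, was at 1062, 821 and 769 CPM at 1 h, then 1000.0, 1044 and 1012 at 2 h, where the 2 h libraries were above all unstimulated ones, the first 1 h library too, and the other 1 h libraries below. Without the first 1 h library Mki67 was called at 2 h over 1 h (0.34 ± 0.062, adjusted p = 0.0182 by edgeR). Top2a was at 901, 940.5 and 1028 CPM at 1 h, then 1070.3, 1134 and 1127 at 2 h, at -0.17 ± 0.067 at 1 h over 0 h and 0.20 ± 0.067 at 2 h over 1 h (adjusted p = 0.846 and 0.262).

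Cdt1 was at 115, 115 and 127 CPM at 0 h, then 150.1, 131 and 139.7 at 1 h and 136, 131 and 131 at 2 h in MEFs, where every ImP library was above every unstimulated one. Its log2 fold change was 0.23 ± 0.068 at 1 h (adjusted p = 0.846 by edgeR) and 0.13 ± 0.068 at 2 h (adjusted p = 1), and 0.19 ± 0.070 at 1 h with the length trend removed. Cdc6, its partner in loading, was at 83.8, 75.9 and 77.4 CPM at 1 h, then 83.3, 78.5 and 76.6 at 2 h, also above all unstimulated libraries, at 0.09 ± 0.068 at 2 h. Mcm4 was at 320.2, 314 and 322 CPM at 0 h, then 380.2, 315 and 327 at 1 h and 348, 345 and 331 at 2 h, at 0.073 ± 0.07 at 2 h, where its libraries were above all unstimulated ones. Neither passed (adjusted p = 1 for both).

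Pcna was at 289, 269.9 and 279 CPM at 1 h, then 243, 239 and 237 at 2 h in MEFs, a log2 fold change of 0.15 ± 0.074 at 1 h over 0 h and -0.23 ± 0.074 at 2 h over 1 h. Ccnb2 was at 102, 85.3 and 94.5 CPM at 0 h, then 96.1, 103 and 115 at 1 h and 87.6, 90.8 and 88.5 at 2 h, at -0.10 ± 0.082 at 2 h over 0 h and -0.25 ± 0.082 at 2 h over 1 h. In both the 2 h libraries lay below all 1 h ones and among the 0 h ones. Rrm2 was at 535, 449.8 and 432 CPM at 1 h, then 442, 456 and 398 at 2 h, with the first 1 h library highest, at 0.15 ± 0.083. Cenpa was at 113, 104 and 103 CPM at 0 h, then 100.3, 105 and 121 at 1 h and 95.6, 91.9 and 109 at 2 h (-0.14 ± 0.088 at 2 h). Tyms was at 82.3, 76.05 and 73.6 CPM at 0 h, then 72.9, 77.2 and 84.7 at 1 h and 76.7, 70.4 and 72.4 at 2 h (-0.11 ± 0.077 at 2 h). The libraries of the 3 times overlapped for Cenpa and Tyms.

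The first 1 h MEF library was the highest of its group for Ccne2, at 164, 108 and 105 CPM at 1 h, then 115, 106 and 86.3 at 2 h. It was the lowest for Ccnb1, at 111, 131 and 157 CPM at 1 h, then 129.7, 132 and 148 at 2 h. Cdk1 was at 169, 195 and 224 CPM at 1 h, then 192, 198 and 197 at 2 h, with the same library lowest. Ccne1 was at 21.9, 20.8 and 22.3 CPM at 1 h, then 21.97, 19.1 and 19.7 at 2 h, and overlapped the unstimulated values. Mcm2 was at 303, 302 and 307 CPM at 1 h, then 317, 309 and 318 at 2 h. Mcm5 was at 283, 275 and 327 CPM at 1 h, then 276, 276 and 287 at 2 h. For Mcm2 the 2 h libraries were above all 1 h ones, and neither helicase gene separated ImP from unstimulated libraries.

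In MAECs Mki67 was at 45.9, 47.5 and 42.97 CPM at 0 h, then 37.7, 28.7 and 33.5 at 1 h and 41.7, 39.6 and 31.1 at 2 h, so all ImP libraries were below all unstimulated ones. Its log2 fold change was -0.44 ± 0.15 at 1 h (adjusted p = 0.826 by edgeR) and -0.27 ± 0.15 at 2 h, and 0.16 ± 0.15 at 2 h over 1 h. Aurka was at 58.3, 62.4 and 81.2 CPM at 0 h, then 44.8, 54.7 and 55.5 at 1 h and 49.96, 51.7 and 47.8 at 2 h, again below all unstimulated libraries at both times, at -0.36 ± 0.16 and -0.42 ± 0.16 (adjusted p = 0.826 and 0.539). Aurka RNA is known to peak in G2 and mitosis.

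Cdk1 was at 115, 138 and 183 CPM at 0 h, then 92.6, 139 and 110.3 at 1 h and 92.5, 117 and 101 at 2 h in MAECs. Ccne2 was at 65.1, 80.7 and 98.3 CPM at 0 h, then 71.4, 76.6 and 45.4 at 1 h and 54.4, 70.6 and 45.3 at 2 h. Their log2 fold changes at 2 h were -0.48 ± 0.20 and -0.51 ± 0.22 (adjusted p = 0.539 for both by edgeR), and the libraries overlapped. Birc5 was at 66.9, 77.6 and 106 CPM at 0 h, then 57.4, 70.6 and 69.03 at 1 h and 53.8, 73.7 and 52.8 at 2 h, at -0.32 ± 0.19 at 1 h, and overlapped as well. Ccnb1 was at 136, 168 and 185 CPM at 0 h, then 137, 159 and 156 at 1 h and 125, 147 and 118 at 2 h. Rrm1 was at 253, 264 and 259 CPM at 0 h, then 275, 253 and 278 at 1 h and 259, 251 and 219 at 2 h. Bub1b was at 25.5, 33.5 and 20.3 CPM at 0 h, then 29.8, 31.4 and 30.7 at 1 h and 27.9, 24.5 and 23.3 at 2 h. Between 2 h and 1 h these 3 were at -0.23 ± 0.15, -0.16 ± 0.11 and -0.29 ± 0.20, and only Bub1b had all 2 h libraries below all 1 h ones.

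Licensing and helicase genes, with Bub1, had the smallest p on the positive side in MAECs. Cdt1 was at 10.6, 8.43 and 9.52 CPM at 0 h, then 11.7, 11.8 and 6.39 at 1 h and 12.2, 16.5 and 11.5 at 2 h, at 0.51 ± 0.26 at 2 h (adjusted p = 0.564 by edgeR), with all 2 h libraries above the unstimulated ones. Mcm2 was at 29.6, 37.6 and 19.2 CPM at 0 h, then 44.01, 30.7 and 33.02 at 1 h and 36.6, 37.3 and 42.1 at 2 h, at 0.32 ± 0.23 and 0.42 ± 0.23. Mcm6 was at 80.6, 96.8 and 68.2 CPM at 0 h, then 105, 94.4 and 80.5 at 1 h and 87.6, 126 and 80.6 at 2 h, at 0.26 ± 0.19 at 2 h. Mcm2 and Mcm6 overlapped between the times. Mcm3 was at 42.9, 39.1 and 44.2 CPM at 0 h, then 49.2, 45.8 and 45.4 at 1 h and 48.5, 42.7 and 41.6 at 2 h. Bub1 was at 27.7, 27.2 and 29.6 CPM at 0 h, then 36.5, 31.1 and 31.4 at 1 h and 25.01, 42.5 and 22.4 at 2 h, and the log2 fold changes at 1 h were 0.17 ± 0.12 for Mcm3 and 0.24 ± 0.21 for Bub1. For Mcm3 and Bub1 all 1 h libraries were above all unstimulated ones, and the 2 h libraries were not.

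Ccne1, the gene called higher in MAECs than in MEFs, was at 65.2, 53.01 and 46.4 CPM at 1 h, then 53.5, 66.2 and 60.3 at 2 h, at 0.13 ± 0.14 at 2 h over 1 h. Top2a was at 130.2, 125 and 109 CPM at 1 h, then 127, 130.2 and 116 at 2 h. Rrm2 was at 433, 483 and 416 CPM at 1 h, then 365, 436 and 363 at 2 h. All 3 overlapped the unstimulated libraries. Pcna was at 78.8, 87.7 and 85.4 CPM at 1 h, then 74.9, 97.3 and 71.6 at 2 h. Mcm5 was at 29.7, 30.6 and 34.1 CPM at 1 h, then 24.9, 30.5 and 29.4 at 2 h. Cdc6 was at 15.97, 13.7 and 13.4 CPM at 1 h, then 14.4, 20.1 and 13.8 at 2 h. These 3 overlapped the unstimulated libraries. In every one of the 3 cell types the 2 h libraries of Cdt1 were above the unstimulated ones, which was true of no other gene of the 40, and Cdt1 was not called in any of them by edgeR with all libraries and the filter on low counts. With no such filter edgeR called it in BMDMs at 2 h (adjusted p = 0.0416). How many of all genes had their 2 h libraries above the unstimulated ones in all 3 cell types is not given here. The 2 h BMDM libraries may also hold 1 of the other time.

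**Figure D5:**
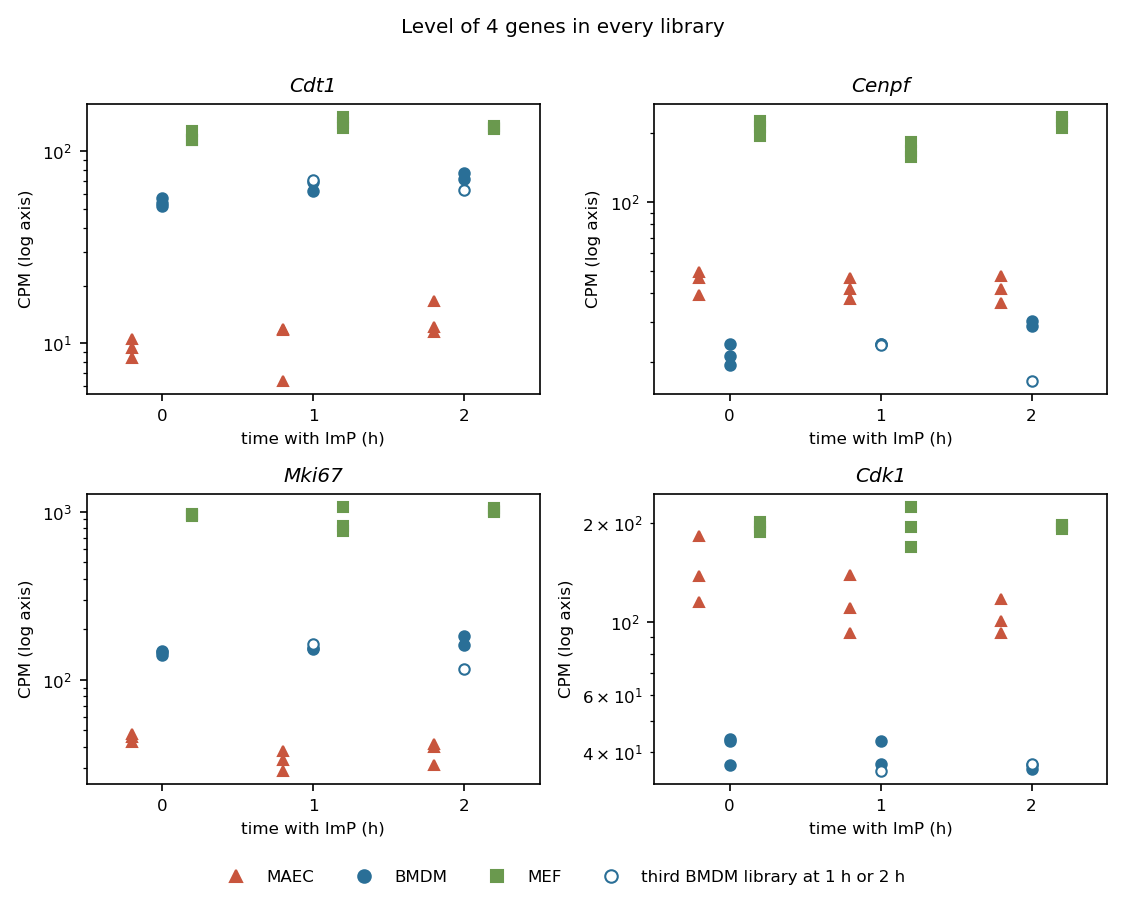
Level in CPM (log axis) of Cdt1, Cenpf, Mki67 and Cdk1 in every library at 0 h, 1 h and 2 h of ImP, for MAECs (triangles), BMDMs (circles) and MEFs (squares); open circles are the third BMDM libraries at 1 h and 2 h. The 9 libraries of one cell type do not overlap those of another for Cdt1, Cenpf or Mki67, the third 2 h BMDM library is the lowest of its group for Cdt1, Cenpf and Mki67, and MEF values of Cenpf dip at 1 h.

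Whether the change with ImP differed between cell types was tested as an interaction, and 0 of the 40 genes were called by edgeR, DESeq2 or limma-voom in any of the 6 comparisons. Of all 17038 genes, 0.00587% and 0.0117% were called for BMDMs minus MEFs at 1 h and 2 h, 0% and 0% for MAECs minus MEFs, and 0.0117% and 0.0528% for MAECs minus BMDMs. At an unadjusted p under 0.05 edgeR gave 1 and 0, 2 and 1, and 1 and 1 of the 40 genes in that order, against 3.62% and 2.18%, 10.99% and 7.93%, and 6.68% and 7.85% of all genes, so the members were at or below the background. The smallest p was that of Mki67 for MAECs minus BMDMs at 1 h, at -0.56 ± 0.19 (adjusted p = 0.543). For Cdt1 the differences between cell types ran from -0.25 to 0.33, none with an adjusted p under 0.05.

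For BMDMs minus MEFs the smallest p at 1 h on the positive side were those of Cenpf (0.46 ± 0.22), Cenpe (0.34 ± 0.19) and Nusap1 (0.28 ± 0.21), and on the negative side Pcna (-0.22 ± 0.16), Ccne2 (-0.31 ± 0.29) and Cdc6 (-0.19 ± 0.19). In BMDMs Cenpf was at 24.1, 19.5 and 21.3 CPM at 0 h, then 23.9, 23.9 and 23.8 at 1 h and 28.8, 30.3 and 16.6 at 2 h. Cenpe was at 37.3, 28.7 and 31.4 CPM at 0 h, then 30.9, 36.4 and 37.3 at 1 h and 39.3, 39.4 and 29.3 at 2 h. Nusap1, a spindle microtubule binder, was at 25.4, 24.1 and 18.6 CPM at 0 h, then 23.5, 26.6 and 22.8 at 1 h and 24.6, 23.7 and 24.6 at 2 h. None of the 3 BMDM series separated ImP from unstimulated libraries. In MEFs Nusap1 was at 80.1, 73.1 and 82.3 CPM at 0 h, then 61.2, 68.8 and 78.4 at 1 h and 72.001, 77.3 and 72.7 at 2 h. At 2 h the genes were Cenpa (0.32 ± 0.24), Cdt1 (0.21 ± 0.22) and Nusap1 (0.18 ± 0.21), and Mcm7 (-0.15 ± 0.16), Cdk1 (-0.19 ± 0.21) and Bub1 (-0.20 ± 0.23). Mcm7 was at 48.6, 51.7 and 45.5 CPM at 2 h, against 56.9, 52.5 and 44.6 CPM at 0 h in BMDMs. In MEFs Mcm7 was at 223, 219 and 217 CPM at 2 h, against 224, 196 and 207 CPM at 0 h. Bub1 was at 107, 113 and 102 CPM at 2 h, against 105, 108 and 109 CPM at 0 h in MEFs. Both overlapped between the times.

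For MAECs minus MEFs at 1 h the genes were Bub1b (0.37 ± 0.18), Kif11 (0.33 ± 0.23) and Mcm2 (0.30 ± 0.23), and Ccne2 (-0.66 ± 0.28), Pcna (-0.34 ± 0.16) and Birc5 (-0.43 ± 0.23). In MEFs Bub1b was at 94.1, 99.9 and 100.3 CPM at 1 h, against 111, 100.3 and 116 CPM at 0 h. Birc5 in MEFs was at 96.1, 111 and 126 CPM at 1 h, against 116, 96.8 and 101 CPM at 0 h. Both overlapped between the times, Bub1b only at 100.3 CPM. Kif11 was at 48.6, 43.3 and 39.98 CPM at 1 h, against 40.3, 44.7 and 30.8 CPM at 0 h in MAECs. In MEFs Kif11 was at 167, 181 and 205 CPM at 1 h, against 209, 187 and 214 CPM at 0 h. Both overlapped between the times. At 2 h they were Mcm2 (0.35 ± 0.23), Cdt1 (0.33 ± 0.22) and Mcm6 (0.19 ± 0.18), and Cdk1 (-0.49 ± 0.21), Mki67 (-0.37 ± 0.19) and Ccne2 (-0.55 ± 0.28). Mcm6 was at 239, 241 and 238 CPM at 2 h, against 229, 223 and 232 CPM at 0 h in MEFs, with all 2 h libraries above all unstimulated ones.

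For MAECs minus BMDMs the genes at 1 h were Bub1b (0.23 ± 0.18), Mcm2 (0.25 ± 0.23) and Mcm6 (0.18 ± 0.18), and Mki67, Gins2 (-0.36 ± 0.20) and Top2a (-0.28 ± 0.18). At 2 h they were Mcm6 (0.29 ± 0.18), Bub1 (0.29 ± 0.23) and Mcm2 (0.28 ± 0.23), and Gins2 (-0.46 ± 0.20), Tpx2 (-0.36 ± 0.18) and Ttk (-0.65 ± 0.34). In MAECs Gins2 was at 57.02, 62.3 and 88.1 CPM at 0 h, then 51.05, 66.1 and 58.7 at 1 h and 45.2, 62.9 and 50.4 at 2 h. In BMDMs Gins2 was at 41.8, 35.2 and 34.8 CPM at 0 h, then 40.3, 40.2 and 41.1 at 1 h and 40.6, 42.4 and 34.3 at 2 h. Its libraries overlapped between ImP and 0 h in both. Tpx2 was at 109.9, 115 and 87.6 CPM at 2 h, against 114, 117 and 151 CPM at 0 h in MAECs. In BMDMs Tpx2 was at 35.2, 32.4 and 30.7 CPM at 2 h, against 34.3, 30.3 and 29.2 CPM at 0 h. Both overlapped between the times. Ttk was at 9.78, 15.7 and 6.49 CPM at 2 h, against 11.8, 16.04 and 17.6 CPM at 0 h in MAECs. In BMDMs Ttk was at 10.97, 6.93 and 8.17 CPM at 2 h, against 7.81, 7.07 and 8.57 CPM at 0 h. Both overlapped between the times. Bub1b in BMDMs was at 23.1, 24.5 and 20.8 CPM at 1 h, against 23.4, 21.01 and 24.8 CPM at 0 h. Mcm6 in BMDMs was at 175, 186 and 173 CPM at 0 h, then 174, 173 and 189 at 1 h and 179.7, 179.7 and 164 at 2 h. Without the third 1 h and 2 h BMDM libraries 0 of the 40 genes were called as well.

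No companion gene passed the test after ImP by edgeR either, where 0 were called of 94 tested in MAECs and of 93 in BMDMs and MEFs, in each of the 6 comparisons of ImP with 0 h. At an unadjusted p under 0.05 there were 5 and 7 in MAECs at 1 h and 2 h, 2 and 1 in BMDMs and 10 and 2 in MEFs. Against the shares of all genes given above for each comparison, these counts were near or below the background except in MEFs at 1 h, with 10 of 93 where 5.87% of all genes had such a p. Ccnd1 had the smallest p in MAECs at 2 h, at levels of 1789 ± 179.7 CPM at 0 h, 2123 ± 229 at 1 h, then 2277 ± 148 at 2 h (SD, n = 3 each), a log2 fold change of 0.26 ± 0.10 at 1 h and 0.35 ± 0.10 at 2 h (adjusted p = 0.826 and 0.539 by edgeR). Myc, an immediate early growth gene, was at 0.30 in MEFs at 1 h (adjusted p = 0.846) and 0.052 in BMDMs. Other replication genes with small p were Gmnn (0.29 ± 0.089), the inhibitor of Cdt1, in MEFs at 1 h, Mcm10 (0.38 ± 0.14) in BMDMs at 1 h and Pole (-0.65 ± 0.22) in MAECs at 2 h. Cdkn1a had log2 fold changes of -0.19 in MAECs, 0.068 in BMDMs and 0.21 in MEFs at 2 h, E2f1 of 0.18, 0.034 and 0.021, and Foxm1 of -0.51, 0.12 and 0.02 in the same order, with no adjusted p under 0.05.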

How the data were processed

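The data are 27 bulk RNA sequencing libraries, with estimated counts per gene, deposited by the authors as 1 table of 25192 gene symbols; 100% of them were whole numbers as deposited, so nothing was rounded. STAR, RSEM, DESeq2, R 4.3.2, FastQC and cutadapt are named with the build GRCm38.p6, per the submitters' processing notes, with settings and strand of counting not given in the sources used here. No column belonged to an unmapped sample. The 27 pairs of libraries within groups differed beyond sampling noise (lowest chi-squared per degree of freedom 5.89), and 0 of 351 library pairs were identical.

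The 40 genes, the companion lists and the tests were chosen with earlier results of these data known. Counts were fitted with edgeR 4.0.16 (limma 3.58.1, R 4.3.3) by the quasi-likelihood test after filterByExpr (minimum count 10) and TMM scaling, with 1 fit per cell type for ImP and 1 over all 27 libraries for cell types and interactions. All adjusted p-values are Benjamini-Hochberg values over all genes tested, two-sided, with a threshold of 0.05. The fits were also run on simulated independent counts, with no length trend and no library under the label of another time. The outcome of that run is not given here. Error after ± is the SE of a log2 value or the SD of a level. Levels are CPM on TMM library sizes, and divided by transcript length (best APPRIS transcript of GENCODE M21, matched for 97.6% of symbols) where genes are compared. The length trend of each library was removed with a lowess curve of span 0.3. All 40 genes could be named; each library's value is given for 11 fixed genes and, in each comparison, for the 3 of smallest p in either direction, and companion genes are those with the smallest p plus Cdkn1a, Ccnd1, Myc, E2f1 and Foxm1. Promoters are from RefSeq on GRCm38.p6. Alternatives were DESeq2 1.42.0, limma-voom, other scalings and filters, the length trend, a block by runs of library codes, and libraries left out.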

Additional observations from a re-analysis of the deposited data

How the results depend on the processing

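Between unstimulated cell types, the 39 genes called for BMDMs against MEFs were called in all 38 alternative settings, as were 25 of the 29 for MAECs against MEFs (not Gins2, Rrm1, Cdk1 and Tpx2) and 30 of the 33 for MAECs against BMDMs (not Ccna2, Ttk and Kif23). The 38 settings include each of the 27 libraries left out in turn, most of them from groups outside the comparison. They also include the same cell types compared at 1 h and at 2 h of ImP instead of 0 h. Counts and ranges over the 38 thus do not reflect processing alone. With the length trend removed the MAEC minus MEF values of Rrm1 (0.049), Tpx2 (0.26) and Cdk1 (0.44) and the MAEC minus BMDM value of Kif23 (0.051) were positive rather than negative. Genes not called for MAECs against MEFs that were called in some of the 38 settings were Cenpa (12), Birc5 (6), Ube2c (5), Tyms (4), Ccne2 and Kif20a (3 each), and Rrm2, Ccnb1, Ccnb2, Aurka and Cdc20 (1 each). For MAECs against BMDMs they were Cdc6 (11), Top2a and Bub1b (4 each), Mcm4 (3), Cenpa (2), and Mcm7 and Kif11 (1 each), and for BMDMs against MEFs Cenpa (18). Scaling by library totals alone shifted the median of all genes by -0.126 for MAECs minus MEFs, 0.238 for MAECs minus BMDMs and -0.415 for BMDMs minus MEFs.

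After ImP, the count called in BMDMs at 2 h over 0 h was 1 (Cdt1) by DESeq2, 1 with no low-count filter, 1 without the third 1 h and 2 h libraries, and 1 with the length trend removed as well, the last chosen after the data had been seen. The count in MEFs at 2 h over 1 h was 2 by DESeq2 (Cenpf and Cenpe), 1 with no low-count filter (Cenpf), and 0 to 2 when each library was left out in turn, the 2 (Cenpf and Mki67) without the first 1 h library. Shares of all genes called in these settings are not given here. For interactions the value of Mcm6 for MAECs minus MEFs at 2 h ran from -0.020 to 0.34 and that of Bub1 for MAECs minus BMDMs at 2 h from -0.043 to 0.47, each lowest without the second 2 h MAEC library. A replicate block by runs of library codes gave 0 called in all 9 ImP comparisons. Deviations of libraries in the same run correlated at -0.047 to 0.229 in MAECs, -0.379 to 0.135 in BMDMs and -0.118 to 0.401 in MEFs, so pairing was not established. The causes of these shifts were not tested, and 3 libraries a group limit what can be detected.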
